A study of Cunninghamia lanceolata with 2 samples.

Results

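The 10 genes described here are the assembled root transcripts of Chinese fir (Cunninghamia lanceolata, a conifer) whose product name in the authors' table reads phytochrome B, out of 32731 genes in all. They were chosen by that product name alone, without a limit on level or fold. The family was singled out with earlier values of these 2 libraries known, so the differences below are a description of its members and carry no test. The LP library (low phosphorus) comes from roots of seedlings kept for 4 months at less than 0.01 mM phosphorus, and the CK library (phosphorus-sufficient control) from roots kept for 4 months at 1 mM phosphorus. All seedlings had first been raised for 1 month in dilute Hoagland nutrient solution. Each group has 1 library, so there is no spread between plants to set a difference against, and "higher" and "lower" compare these 2 libraries. The labels give no age, genotype or number of seedlings per library.

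Phytochromes are photoreceptors of red and far-red light. They carry a bilin chromophore made from heme by heme oxygenase and phytochromobilin synthase, and they switch between an inactive form that absorbs red light and an active form that absorbs far-red light. In Arabidopsis the active form of phytochrome B enters the nucleus, where it binds phytochrome-interacting factors (PIFs, bHLH transcription factors) and leads to their breakdown, and it restrains the COP1/SPA ubiquitin ligase that removes light-response factors. Phytochrome B is the main phytochrome of light-grown Arabidopsis plants and is present in roots as well as shoots. It also feeds light information into the circadian clock. Conifers have phytochrome genes of their own, so the letter in a product name gives the closest named relative and not the same gene as in Arabidopsis.

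The 10 members had lengths of 265 to 4303 bases, against a median of 610 bases over all genes. The longest, comp20887_c0 (4303 bases) and comp22076_c0 (4213 bases), and comp9216_c0 (2388 bases) make up the members over 2000 bases. Of the 7 others, comp43044_c0 has 1380 bases and 6 are under 600 bases. The members share 1 KEGG orthology and 1 identical set of GO terms, including red and far-red light phototransduction, histidine kinase type sensor activity and chromophore linkage. Their best protein match falls on 4 database entries, and 7 of the 10 share 1 of these, as does 1 of the 4 genes named phytochrome A. The pair comp7487_c0 and comp7487_c1 comes from 1 assembly component. Short members can thus be pieces of 1 transcript or copies that share reads, and the files do not tell which, so values of single short members are uncertain.

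Of the 10 members, 9 were lower in LP and 1 was higher. Levels are the deposited RPKM, which divides reads by gene length and library depth, and each ratio of LP to CK has a 95% counting interval from the estimated reads. These intervals cover counting error only and take the library totals as depth. They lay under 1 for 9 members, and for the other 1 the interval held 1.

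The most abundant member, comp20887_c0, had 21.71 RPKM in LP roots and 39.45 RPKM in CK roots, on 4741 and 3155 reads. Its LP level was 0.550 times the CK level (0.529 to 0.579). It held 58.2% of all phytochrome B reads in LP and 54.8% in CK, the best measured member of the family. The second long gene, comp22076_c0, had 6.99 RPKM in LP roots and 16.23 RPKM in CK roots, with a ratio of 0.431 (0.401 to 0.467). Its protein match is an entry that no other member has. The third, comp9216_c0, assembled as 2 transcripts, had 8.83 RPKM in LP roots and 16.62 RPKM in CK roots, with a ratio of 0.531 (0.500 to 0.607). The intervals of comp20887_c0 and comp9216_c0 overlap, and the interval of comp22076_c0 lies below both.

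The lowest ratio belonged to comp43044_c0, with 1.29 RPKM in LP roots and 8.22 RPKM in CK roots, on 87 and 203 reads. It had fewer reads in LP although that library is the deeper one, and its LP level was 0.157 times the CK level (0.121 to 0.204). The short gene comp50630_c0 had 1.80 RPKM in LP roots and 7.14 RPKM in CK roots on only 22 and 32 reads, a ratio of 0.252 (0.140 to 0.449). Its interval covers the ratios of 4 other members, comp43044_c0, comp7487_c1, comp7487_c0 and comp22076_c0.

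Both genes of the shared assembly component were lower in LP. The gene comp7487_c1 had 3.35 RPKM in LP roots and 10.79 RPKM in CK roots (ratio 0.310, 0.190 to 0.508). Its partner comp7487_c0 had 3.42 RPKM in LP roots and 8.38 RPKM in CK roots (ratio 0.408, 0.277 to 0.609). The intervals of this pair overlap for the ratio and for the level in each library. The gene comp5287_c0 had 6.22 RPKM in LP roots and 12.4 RPKM in CK roots, with a ratio of 0.502 (0.384 to 0.663) close to that of the long members.

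The remaining short members stood nearest to equal levels. The gene comp4698_c0 had 11.4 RPKM in LP roots and 15.57 RPKM in CK roots, a ratio of 0.732 (0.599 to 0.907). The exception to the shared direction was comp12638_c0, a gene of 309 bases with 20.29 RPKM in LP roots and 16.18 RPKM in CK roots, a ratio of 1.25 (0.963 to 1.66). With the library totals as depth, its 246 LP reads and 72 CK reads do not separate its levels beyond counting error. Other scalings of the libraries, given below, set its ratio higher.

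**Figure D1:**
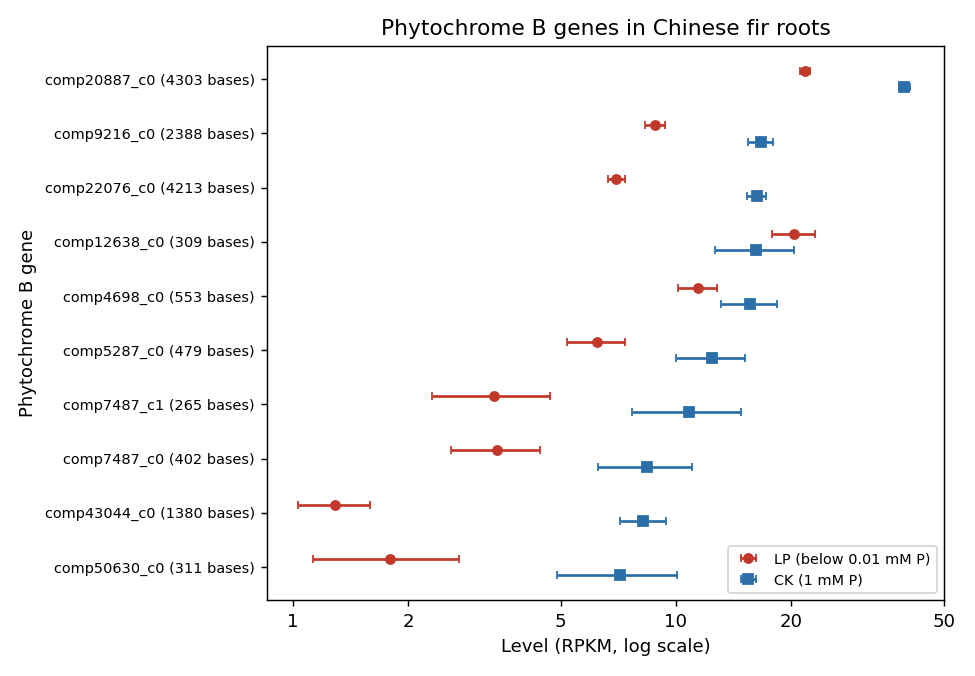
Level of each phytochrome B gene in RPKM (log axis) in LP (red circles) and CK (blue squares), 1 library each, ordered by the CK level, with bars for 95% Poisson intervals of the reads. The LP point lies left of the CK point for 9 genes, and comp12638_c0 is the exception at 20.29 RPKM in LP roots and 16.18 RPKM in CK roots.

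The members differed more among themselves in LP than in CK. The highest level was 16.8 times the lowest in LP and 5.53 times the lowest in CK. In LP the order ran from comp20887_c0 at 21.71 RPKM through comp12638_c0, comp4698_c0, comp9216_c0, comp22076_c0, comp5287_c0, comp7487_c0, comp7487_c1 and comp50630_c0 to comp43044_c0 at 1.29 RPKM. In that library the first 2 overlap in their counting intervals, as do comp22076_c0 with comp5287_c0 and each neighbour among the last 4. In CK, comp20887_c0 at 39.45 RPKM stood clear of the next gene, comp9216_c0 at 16.62 RPKM, and all later neighbours overlap down to comp50630_c0 at 7.14 RPKM. The gene comp12638_c0 held 23.8% of the summed family level in LP and 10.7% in CK, while comp43044_c0 held 1.51% and 5.44%. The deposited RPKM of a member was 0.949 to 1.31 times the value recomputed from its reads and effective length, and most above it for the shortest genes. That factor differs little between the libraries, so it touches the order of levels more than the ratios.

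On the scale used for all genes, log2((LP + 1)/(CK + 1)) of RPKM, 5 of the 10 members were at least 2-fold lower in LP, 0 were at least 2-fold higher and 5 stayed within 2-fold. All 10 passed the limit of a mean of at least 1 RPKM. Among the 30843 genes past that limit, 16.2% were at least 2-fold lower and 8.68% at least 2-fold higher. A log2 ratio under 0 was found for 9 of 10 members and for 59.7% of all genes. The 5 lower members were comp43044_c0 (-2.01), comp50630_c0 (-1.54), comp7487_c1 (-1.44), comp22076_c0 (-1.11) and comp7487_c0 (-1.09). Just short of the 2-fold limit lay comp5287_c0 (-0.89), comp9216_c0 (-0.84) and comp20887_c0 (-0.83). The median over members was -0.99, and over all genes -0.16. For comp43044_c0, 2.70% of all genes had a lower log2 ratio, and for comp20887_c0 20.3%. This log2 scale understates the fold of the low members.

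**Figure D2:**
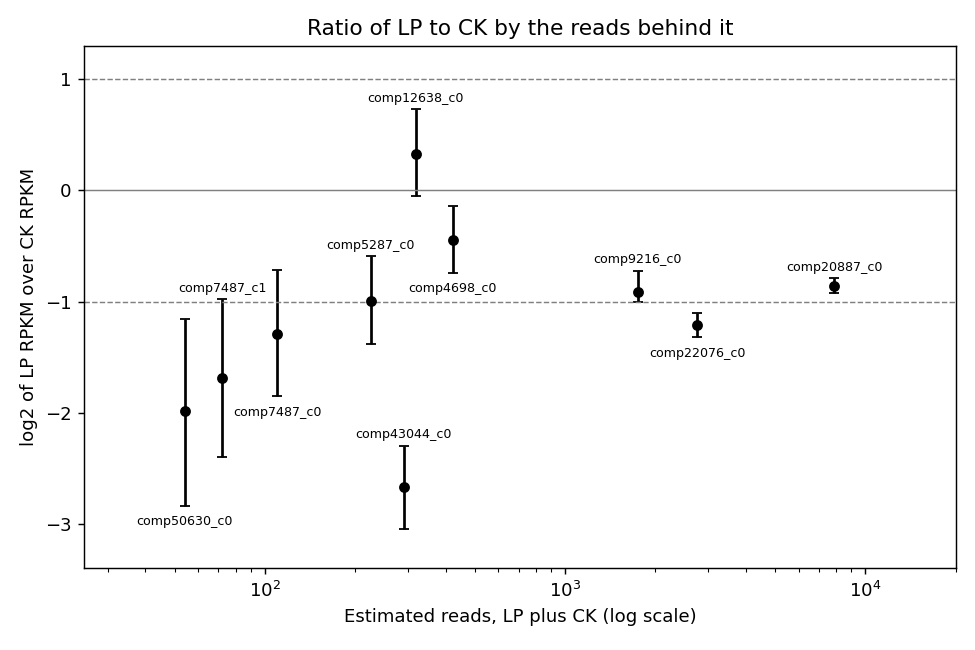
log2 of LP RPKM over CK RPKM for each phytochrome B gene against its estimated reads in both libraries together (log axis), with bars for 95% counting intervals and dashed lines at 2-fold. The 3 genes with the most reads, comp20887_c0, comp22076_c0 and comp9216_c0, have the narrowest bars, at ratios of 0.431 to 0.550.

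The scaling of the libraries moved the count of lower members. With TMM factors on the estimated counts, which shift the median log2 ratio of all genes to 0.04, 3 of 10 members were at least 2-fold lower, against 11.5% of all genes. Those 3 were comp43044_c0, comp50630_c0 and comp7487_c1, all with 203 reads or fewer in each library. Of all genes past 2-fold, 65.1% were lower under RPKM and 52.1% under TMM. The direction of each of the 10 members was the same under RPKM, TMM and median-of-ratios scaling and relative to the median of all genes. The counting intervals were not recomputed under TMM or median-of-ratios scaling, so an interval that ends near 1 depends on the scaling. Under these 2 scalings comp4698_c0 had log2 ratios of -0.19 and -0.21, and comp12638_c0 had 0.54 and 0.52.

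Gene length moved with the ratio over the whole table. Genes of 2000 bases and over had a median log2 ratio of -0.34, genes from 600 to under 2000 bases 0.03 and genes under 600 bases -0.31. The 3 long members had a median of -0.84 and the 6 members under 600 bases one of -0.99. Of all genes under 600 bases, 24.0% were at least 2-fold lower in LP and 62.8% had a log2 ratio under 0. For the 6 short members these counts were 3 and 5. Of all genes of 2000 bases and over, 7.39% were at least 2-fold lower and 80.4% had a log2 ratio under 0. For the 3 long members these counts were 1 and 3. The part of length in the values of the members was not tested.

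**Figure D3:**
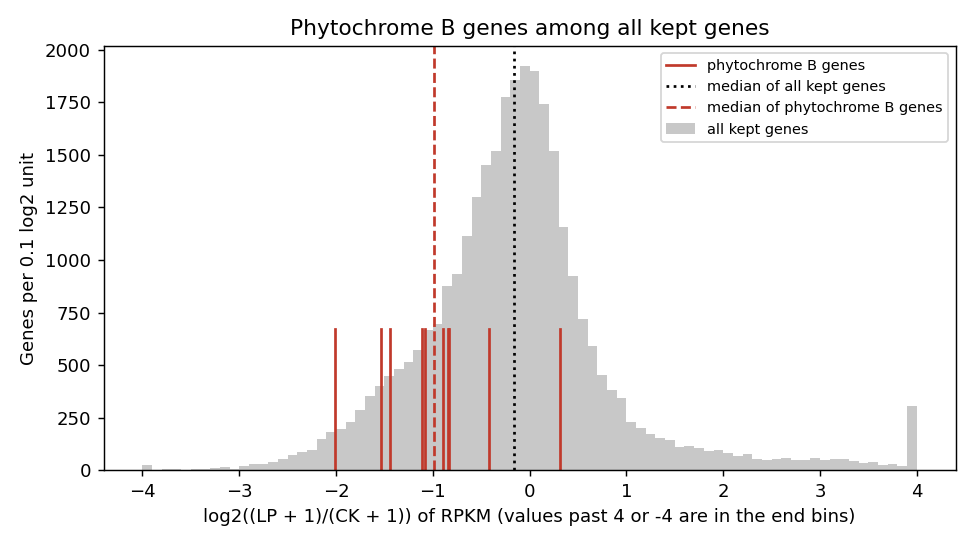
Histogram of log2((LP + 1)/(CK + 1)) over the 30843 kept genes (grey, values past 4 or -4 in the end bins), with a red line for each of the 10 phytochrome B genes. The dashed line is the median of the members at -0.99 and the dotted line the median of all kept genes at -0.16.

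The authors' deposited table marks 3 of the 10 members as changed, all lower in LP, against 5.17% of all genes marked lower. In the authors' deposited table these are comp43044_c0 with an FDR of 0.18, comp7487_c1 with 0.28 and comp22076_c0 with 0.29. Every gene so marked in the authors' deposited table has an unadjusted p-value of at most 0.05 and an absolute log2 fold change of at least 1, and the FDR reaches 0.35 among them. The best measured member, comp20887_c0, has the lowest FDR of the 10 in the authors' deposited table, 0.12, and is not marked, its log2 fold change being -0.86. In the authors' deposited table, an FDR of at most 0.05 is given for 0 of 10 members and for 2246 of all genes. That test compares the reads of 2 libraries and not the phosphorus levels.

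Taken as 1 family, phytochrome B transcripts stood at 85.3 RPKM in LP roots and 150.98 RPKM in CK roots as a plain sum, a ratio of 0.565. A sum of RPKM counts a transcript split into pieces more than once. Pooling all reads over the summed length gave 11.5 RPKM in LP roots and 22.2 RPKM in CK roots, a ratio of 0.520 (0.503 to 0.538). The 3 long members alone gave 13.9 RPKM in LP roots and 26.5 RPKM in CK roots, a ratio of 0.523 (0.504 to 0.542). The 7 shorter ones gave 4.78 RPKM in LP roots and 9.60 RPKM in CK roots, a ratio of 0.498 (0.449 to 0.553). This interval overlaps that of the long members, but comp43044_c0 (ratio 0.157) supplied 203 of the 634 CK reads behind it. Without that gene, the 6 members under 600 bases summed to 46.5 RPKM in LP roots and 70.5 RPKM in CK roots, a ratio of 0.660. The plain sums of the 3 long members had a ratio of 0.519. No counting interval was computed for the 6, so the overlap does not show that the shortest members match the long ones. In these bulk libraries, fewer cells that hold the transcript and less of it per cell cannot be told apart.

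Phytochrome A, the light-labile relative that senses far-red light in Arabidopsis, is the name of 4 genes. They summed to 26.6 RPKM in LP roots and 40.9 RPKM in CK roots, below the phytochrome B sum in both libraries. These sums cover 4 and 10 genes, some of which can be pieces of 1 transcript, so their order is uncertain. The median log2 ratio was -1.05 for phytochrome A and -0.99 for phytochrome B. The gene comp62169_c0 had 1.25 RPKM in LP roots and 6.1 RPKM in CK roots (ratio 0.205, 0.144 to 0.290). The gene comp6301_c0 had 19.41 RPKM in LP roots and 19.35 RPKM in CK roots (ratio 1.00, 0.843 to 1.21). Of the 4, 2 were at least 2-fold lower, the other being comp46373_c0 at 2.83 RPKM in LP roots and 10.53 RPKM in CK roots, which shares its protein match with 7 phytochrome B members.

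The genes that supply or act with phytochrome B were read from a list of search terms on product names, which matched 62 genes in 15 of 21 groups. Of these 62, 9 (14.5%) were at least 2-fold lower in LP and 3 (4.84%) at least 2-fold higher, with a median log2 ratio of -0.27. Neither share is above that of all genes, 16.2% and 8.68%. Under TMM these counts were 8 and 5, and the median was -0.05.

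Among the enzymes of the chromophore, only the abundant heme oxygenase had a counting interval clear of 1, with the library totals as depth. Of 3 heme oxygenase genes and 1 phytochromobilin:ferredoxin oxidoreductase, 0 were at least 2-fold apart. The abundant heme oxygenase comp27711_c0 had 122.69 RPKM in LP roots and 77.59 RPKM in CK roots, a ratio of 1.58 (1.52 to 1.66). Heme oxygenase comp4757_c0 had 11.35 RPKM in LP roots and 10.59 RPKM in CK roots (ratio 1.07, 0.874 to 1.33). The short heme oxygenase comp8431_c0 had 4.54 RPKM in LP roots and 7.7 RPKM in CK roots (ratio 0.590, 0.343 to 1.04). The phytochromobilin enzyme comp112228_c0 had 1.65 RPKM in LP roots and 1.83 RPKM in CK roots (ratio 0.902, 0.554 to 1.52).

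Cryptochromes, the blue-light receptors, were lower in LP in all 4 genes, under RPKM and TMM scaling alike, with 1 past 2-fold. These genes have 1965 to 4288 bases. Of all genes of 2000 bases and over, 80.4% had a log2 ratio under 0 and 7.39% were at least 2-fold lower. Cryptochrome 1 gene comp22189_c0 had 5.57 RPKM in LP roots and 23.3 RPKM in CK roots, a ratio of 0.239 (0.219 to 0.264) and lower than that of 9 of the 10 phytochrome B members. Cryptochrome 1 gene comp29729_c0 had 24.6 RPKM in LP roots and 31.67 RPKM in CK roots, a ratio of 0.777 (0.735 to 0.829).

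Among proteins downstream of the receptor, most stayed within 2-fold. Of 10 genes annotated as RFWD2, the vertebrate name of COP1, 0 were past 2-fold on the log2((LP + 1)/(CK + 1)) scale, though the plain RPKM ratio of the lowest is just past it. That gene, comp25678_c0, had 4.53 RPKM in LP roots and 9.28 RPKM in CK roots (ratio 0.488, 0.448 to 0.537), and the highest, comp30596_c0, 29.06 RPKM in LP roots and 23.36 RPKM in CK roots (ratio 1.24, 1.14 to 1.37). Of 5 genes of the DET1 and DDB1 group, which works with COP1 in protein breakdown, 1 was past 2-fold. It is comp2240_c0, a DDB1 gene with 0.12 RPKM in LP roots and 2.78 RPKM in CK roots on 3 and 26 reads. At the other end, comp18847_c0, named DET1- and DDB1-associated protein 1, had 25.33 RPKM in LP roots and 20.34 RPKM in CK roots. Of 8 casein kinase II subunit genes, a kinase that phosphorylates PIFs in Arabidopsis, 1 was past 2-fold. This subunit gene, comp14772_c0, has no protein match in the table and had 0.18 RPKM in LP roots and 5.2 RPKM in CK roots, on 8 and 85 reads.

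The 6 genes of the direct partner type, all named phytochrome-interacting factor 3, summed to 95.0 RPKM in LP roots and 125 RPKM in CK roots, with a median log2 ratio of -0.27. Only comp19937_c0 passed 2-fold, with 7.45 RPKM in LP roots and 21.07 RPKM in CK roots, a ratio of 0.354 (0.321 to 0.396). The most abundant pair stayed nearer to equal, comp5974_c0 with 31.41 RPKM in LP roots and 44.19 RPKM in CK roots, and comp15172_c0 with 32.51 RPKM in LP roots and 39.43 RPKM in CK roots. At the other end, comp17173_c0 had 12.51 RPKM in LP roots and 9.96 RPKM in CK roots, and comp15369_c0 had 7.58 RPKM in LP roots and 6.15 RPKM in CK roots. The factor genes thus lay on both sides, and under TMM 4 of 6 still had a log2 ratio under 0.

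Of 16 clock and flowering genes, 3 (18.8%) were at least 2-fold lower in LP and 0 at least 2-fold higher. Over all genes these shares were 16.2% and 8.68%, so the lower share is near that of all genes. Under TMM the counts were 2 and 1. GIGANTEA (comp23724_c0), a clock protein that also controls flowering, had 5.26 RPKM in LP roots and 19.51 RPKM in CK roots, a ratio of 0.270 (0.251 to 0.291). The pseudo-response regulator 9 gene comp11124_c0, which encodes a clock repressor, had 2.94 RPKM in LP roots and 10.99 RPKM in CK roots (ratio 0.268, 0.209 to 0.347). The third was the pseudo-response regulator 7 gene comp26858_c0, with 12.01 RPKM in LP roots and 32.06 RPKM in CK roots. Its ratio of 0.375 lies below the interval from its reads (0.437 to 0.500), and under TMM it was within 2-fold (log2 ratio -0.82). Its namesake comp4460_c0 stood at the other end with 15.68 RPKM in LP roots and 7.97 RPKM in CK roots (ratio 1.97, 1.75 to 2.24), and under TMM it passed 2-fold. The other high member, pseudo-response regulator 9 gene comp22268_c0, had 8.1 RPKM in LP roots and 5.91 RPKM in CK roots, a ratio of 1.37 that lies outside the interval from its reads (0.912 to 1.18). The hour of sampling is not given in the labels, so a difference in clock genes with the time of day was not tested.

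Chalcone synthase is the first enzyme of flavonoid synthesis and a classic light-induced gene. All 5 genes were higher in LP under RPKM and TMM scaling, at least 2-fold in 3 under RPKM and in 4 under TMM. Of all genes, 8.68% were at least 2-fold higher under RPKM. A link between these genes and the receptors was not tested. The highest ratio was that of comp19192_c0, with 19.88 RPKM in LP roots and 5.4 RPKM in CK roots (3.68, 2.61 to 5.52), followed by comp385_c0 with 83.65 RPKM in LP roots and 35.32 RPKM in CK roots (2.37, 1.98 to 2.87). The third past 2-fold under RPKM, comp26905_c0, had the highest level, 2333.4 RPKM in LP roots and 1142.56 RPKM in CK roots, but its ratio of 2.04 lies above the interval from its reads (1.90 to 1.95). The lowest ratios were those of comp26086_c0 with 1900.81 RPKM in LP roots and 1218.16 RPKM in CK roots (1.56, 1.54 to 1.60) and comp5707_c0 with 357.24 RPKM in LP roots and 185.56 RPKM in CK roots (1.93, 1.82 to 2.05).

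**Figure D4:**
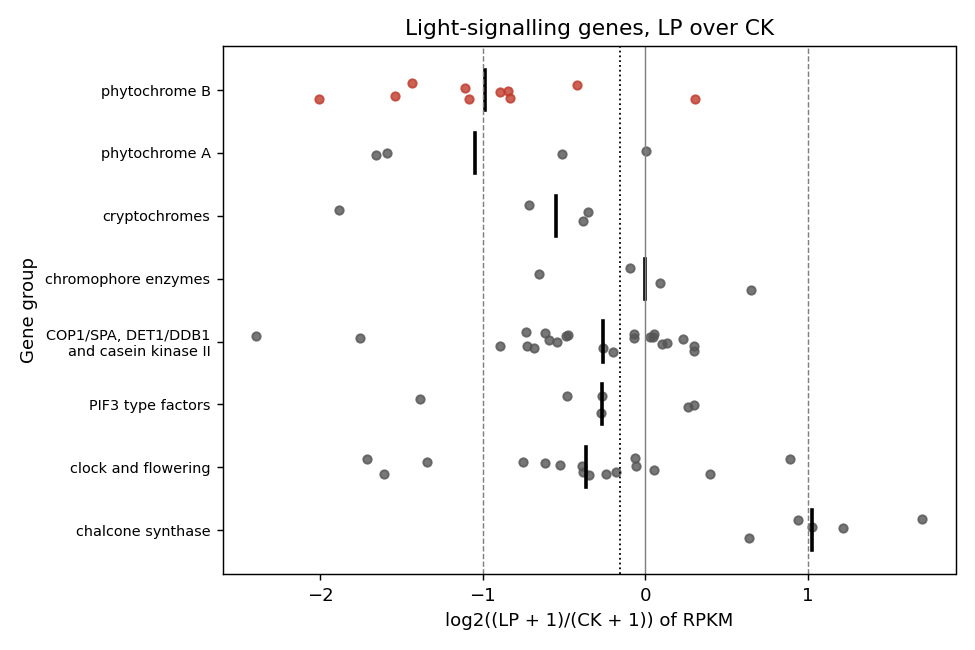
log2((LP + 1)/(CK + 1)) of RPKM for phytochrome B (red) and the 62 other light-signalling genes (grey) by role, 1 point a gene, with a black bar at each median, a dotted line at the median of all kept genes and dashed lines at 2-fold. Phytochrome B has its median at -0.99 and chalcone synthase at 1.03.

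The 5 genes with a product name whose pair of levels lay nearest to that of comp20887_c0 were a protein-serine/threonine kinase (comp27005_c0), the molecular chaperone HtpG (comp23234_c0), a steroid 23-alpha-hydroxylase (comp24762_c0), a lipoxygenase (comp26516_c0) and a phospholipase D (comp26110_c0). Their Euclidean distances on log2(RPKM + 1) over the 2 libraries were 0.013, 0.033, 0.042, 0.065 and 0.065, among 7874 genes compared. The nearest, comp27005_c0, had 21.77 RPKM in LP roots and 39.8 RPKM in CK roots. With 2 libraries this likeness says only that the levels are close.

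Depth was 48502899 estimated reads in LP and 17848911 in CK, so a gene at a given level has more reads in LP. Green tissue, where phytochromes are also expressed, was followed with 49 genes of Rubisco, light-harvesting proteins and photosystems I and II. Over the 47 of them that averaged 1 RPKM or more, 10 (21.3%) were at least 2-fold lower in LP and 5 (10.6%) higher, with a median log2 ratio of 0.11. Over all genes these shares were 16.2% and 8.68%. All 49 had a summed level of 460 RPKM in LP roots and 846 RPKM in CK roots. Their groups differed. The 19 photosystem II genes summed to 255 RPKM in LP roots and 699 RPKM in CK roots, with 9 at least 2-fold lower. The other groups summed higher in LP. The 16 light-harvesting genes had 117 RPKM in LP roots and 88.3 RPKM in CK roots. The 4 Rubisco small chain genes had 37.9 and 18.4 RPKM, and the 10 photosystem I genes 50.4 and 39.8 RPKM, in the same order. The part of green tissue in the phytochrome B values was not tested. For root identity, the terms Casparian strip, root hair, endodermis, scarecrow and short-root matched 0 product names, so root identity could not be checked with them. The 7 ammonium transporter genes on the list summed to 143 RPKM in LP roots and 109 RPKM in CK roots. Gene by gene they differed more than these sums show. In LP, 5 of the 7 lay past 2-fold on the higher side and 1 on the lower side. Their median log2 ratio was 2.11, so this group is not a steady reference for root tissue. The 23 phosphate transporter genes are themselves a known target of phosphorus supply and summed to 1968 RPKM in LP roots and 210 RPKM in CK roots.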

How the data were processed

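Root RNA was sequenced in 2 paired-end Illumina libraries, LP and CK. The labels' protocols name oligo(dT) selection but also mention adipose tissue and a poly(A)- fraction, so the RNA fraction is uncertain; assembler, aligner, counter and statistical test were not stated. The authors deposited estimated counts per assembled gene without normalization, and RPKM scaled to gene length and depth. The deposited table also gives lengths in bases, a log2 fold change of LP over CK, and a p-value and FDR rounded to 2 decimals.

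Here log2((LP + 1)/(CK + 1)) was computed on RPKM (pseudocount 1), keeping 30843 genes whose mean reached 1 RPKM, and genes past 2-fold were tallied. No test was possible with 1 library a group. Printed ratios divide RPKM values, with 95% Clopper-Pearson intervals of the whole reads (rounded estimated counts). Level intervals are exact Poisson ones. TMM factors came from edgeR 4.0.16; Python 3.11.15 with scipy 1.17.1 did the rest. The calculation was tested on simulated Poisson counts, with RPKM computed from those counts. The deposited RPKM and a spread between plants were not part of that simulation.

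The members and gene lists were chosen with earlier results of these data known. All 10 members are named. Of the other light-signalling genes, the 2 highest and 2 lowest of each role with a mean of 2 RPKM or more are named, with chromophore enzymes and chalcone synthase as roles of their own. The genes comp112228_c0, comp15172_c0, comp46373_c0, comp2240_c0, comp26858_c0 and comp26905_c0 were added after their values were seen. The 5 nearest genes are by distance of log2(RPKM + 1).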

Additional observations from a re-analysis of the deposited data

How the results depend on the processing

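No paired analysis was possible because each group has 1 library, and for the same reason no replicate could be left out. Filters changed no member: all 10 have at least 10 reads in each library. A pseudocount of 0.1 gave 5 lower members and moved comp43044_c0 to -2.58. Relative to the median of all genes, 3 members were at least 2-fold lower, as under TMM and median-of-ratios scaling (3 each, both added after the data were seen), and a 4-fold limit left 1. The log2 ratio of comp22076_c0 was -0.95 relative to that median, -0.89 under TMM and -0.91 under median-of-ratios scaling. In the same order comp20887_c0 had -0.68, -0.59 and -0.61, and comp9216_c0 had -0.57 under TMM and -0.59 under median-of-ratios scaling. The family ratio of 0.565 became 0.520 by reads per library total, 0.668 under TMM and 0.570 without comp20887_c0. Pooling per length gives the same 0.520 by construction, since the summed length cancels in the ratio. The light-signalling genes at least 2-fold higher numbered 5 relative to the median of all genes, under TMM and under median-of-ratios scaling alike. Over all genes, requiring 10 reads in each library left 2811 lower and 1157 higher, against 4996 and 2676 with the mean RPKM filter. Depth limits comp50630_c0, comp7487_c1 and comp7487_c0 most, at 22 to 58 LP reads and 32 to 52 CK reads.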

Other observations

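The COP9 signalosome, a complex that works beside COP1 in protein breakdown and that Arabidopsis needs to hold back light responses in darkness, was not part of the lists above and was chosen after its values were seen. Of its 11 subunit genes, 10 stayed within 2-fold and 1 (9.09%) was at least 2-fold lower in LP under RPKM, and 0 were under TMM. Over all genes, 16.2% were at least 2-fold lower under RPKM and 11.5% under TMM. Subunit 1 (comp24446_c0), the most abundant, had 81.47 RPKM in LP roots and 84.03 RPKM in CK roots. The exception was a short subunit 2 gene, comp5077_c0, with 2.94 RPKM in LP roots and 8.18 RPKM in CK roots on 55 and 56 reads. The summed level was 290 RPKM in LP roots and 299.9 RPKM in CK roots, a ratio of 0.968, against 0.565 for phytochrome B.

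The GO term for red and far-red light phototransduction marks 43 genes, among them all 10 phytochrome B and 4 phytochrome A genes. The 29 others are not a separate set. They include the 11 COP9 signalosome genes above and genes named RFWD2, EARLY FLOWERING 3, DDB1 and DET1 from the earlier list. Of these 29, 1 (3.45%) was at least 2-fold lower and 1 (3.45%) at least 2-fold higher in LP, with a median log2 ratio of -0.12. Over all genes these shares were 16.2% and 8.68%. The lower one is comp5077_c0, the COP9 exception already given. Under TMM 0 were at least 2-fold lower and 1 at least 2-fold higher, and the median was 0.11. The higher one, comp14601_c0, has no product name and had 12.11 RPKM in LP roots and 3.69 RPKM in CK roots, on 1165 and 130 reads.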
